A study of Drosophila melanogaster with 12 samples.

Results

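Of 40 genes listed as the spliceosome and splicing factor genes of Drosophila, 35 were measured among the 12058 genes of this series of wing disc regeneration. The list was drawn up from names and annotation and uses no measured value, but earlier results of these data were known when it was made. The probes of a gene were averaged. All 7 proteins of the Sm core were measured, 1 of 3 listed proteins of the U1 snRNP, 12 of 12 genes of the U2 snRNP and branch site group, 5 of 6 genes of the U4/U6.U5 group, 4 of 4 genes of the Prp19 group and 6 of 8 SR and SR-related proteins. No probe of snRNP-U1-C, snf, Prp31, x16 or Srp54 was matched.

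The spliceosome removes introns from nuclear transcripts. It is built from small nuclear ribonucleoproteins (snRNPs), each a small RNA held by a ring of Sm proteins with proteins of its own. The U1 snRNP binds the start of the intron, the U2 snRNP binds the branch site near its end, and the U4/U6.U5 tri-snRNP then joins and is rearranged into the catalytic form with the help of the Prp19 complex. SR proteins bind exons and guide these parts to splice sites. Nearly all cells make these proteins, the dividing cells of imaginal discs included.

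Wing imaginal discs came from larvae of the third instar of the isogenic line w118iso; 2iso; 3iso, as the labels spell it (w1118ISO in the paper). Cut discs (C) had lost a 90º sector of the posterior compartment, so that a 3/4 anterior fragment was left, and their RNA was taken at 0 h without implantation and at 24 h and 72 h after implantation into recently eclosed Canton S females kept at 25 ºC. Intact discs (NC) had no cut and gave RNA at 0 h and at 24 h after the same implantation. The 3 comparisons, C0→C24, C24→C72 and NC0→NC24, had 2 biological replicates each, and each replicate was hybridized with the dyes in both orders (dye swaps A and B), which gave 12 two-colour arrays of spotted oligonucleotides. No array held an intact disc at 72 h, none set cut directly against intact discs, and 24 h RNA of cut discs was used in both C0→C24 and C24→C72.

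Every value below is read as a log2 ratio of later over earlier time, so that -1 would stand for 2-fold less RNA at the later time. Neither the log base nor the direction was stated for the deposited values. Both are likely readings, from the usual practice of the tools and the order of times in the names of the comparisons, and every fold and every fall or rise rests on them. Ratios hold no level, so neither the tissue label nor the abundance of a gene could be checked, and fewer cells of a type cannot be told apart from less RNA per cell. A gene was called lower or higher, and is said to have fallen or risen, where limma's adjusted p (Benjamini-Hochberg over 12058 genes) was under 0.05 and the change was at least 1.5-fold, or 0.585 on the log2 scale. With 2 replicates a comparison, the p-values rest on a spread shared by all 3 comparisons. Over all genes the difference between replicates had an SD of 0.288 in C24→C72, against 0.211 in C0→C24 and 0.217 in NC0→NC24. Standard errors and p-values of C24→C72 are therefore likely too small.

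The arrays of the first 24 h were more alike than those of the later period. Over all genes the 2 replicate means of C0→C24 correlated at 0.896, those of NC0→NC24 at 0.85 and those of C24→C72 at 0.533. Dye swaps of the same RNA correlated at 0.721 to 0.844 for C0→C24, at 0.686 to 0.802 for NC0→NC24 and at 0.2 to 0.438 for C24→C72. The median of all genes lay between -0.05 and 0.04 on the 12 arrays. The median of the 35 splicing genes lay between -0.45 and -0.32 on the 4 arrays of C0→C24, between -0.05 and 0.10 on those of C24→C72, and between -0.34 and -0.25 on those of NC0→NC24, so that it was below the median of all genes on every array of the first 24 h. Dye swap B of replicate 2 of C0→C24 had the smallest spread over all genes of its 4 arrays (SD 0.358, against 0.427 to 0.559 on the other 3).

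In the first 24 h after implantation, part of the splicing genes fell in cut discs. Of the 35 genes 13 fell and 0 rose in C0→C24, or 37.1% lower, while 4.94% of all genes tested were called lower and 6.12% higher. The 13 were SmD3, SmE, SmF, SmG, snRNP-U1-70K, Sf3b3, Sf3b5, SF1, Prp8, hoip, Prp19, SC35 and RnpS1, which came from each of the 6 groups. For 10 of the 13, dye swap B of replicate 2 gave the value closest to 0. The median change of the 35 was -0.33, against -0.01 over all genes, and the values ran from -1.12 to 0.56. Of the 35, 27 were below 0, 22 of them on all 4 arrays, and 5 genes were above 0 on all 4 arrays. Over all genes 6323 of 12058 were below 0, and signs on all 4 arrays were not counted there. In the Prp19 group 3 of 4 genes were above 0, with a median of 0.18. By adjusted p alone 18 were lower and 3 higher (U2af50, Cdc5 and tra2), where 12.9% and 13.9% of all genes were, so that the share of higher members was under the background.

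In intact discs 10 of the 35 fell and 1 rose in NC0→NC24, against a background of 3.85% of all genes called lower and 5.14% called higher. The median of the 35 was -0.26, and that of all genes was 0.00. All 10 genes that fell in intact discs were among the 13 of cut discs, while SmG, Prp8 and SC35 were called in cut discs alone. The gene that rose was U2af50. By adjusted p alone 15 were lower and 2 higher (U2af50 and tra2), where 10.3% and 12.0% of all genes were.

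**Figure D1:**
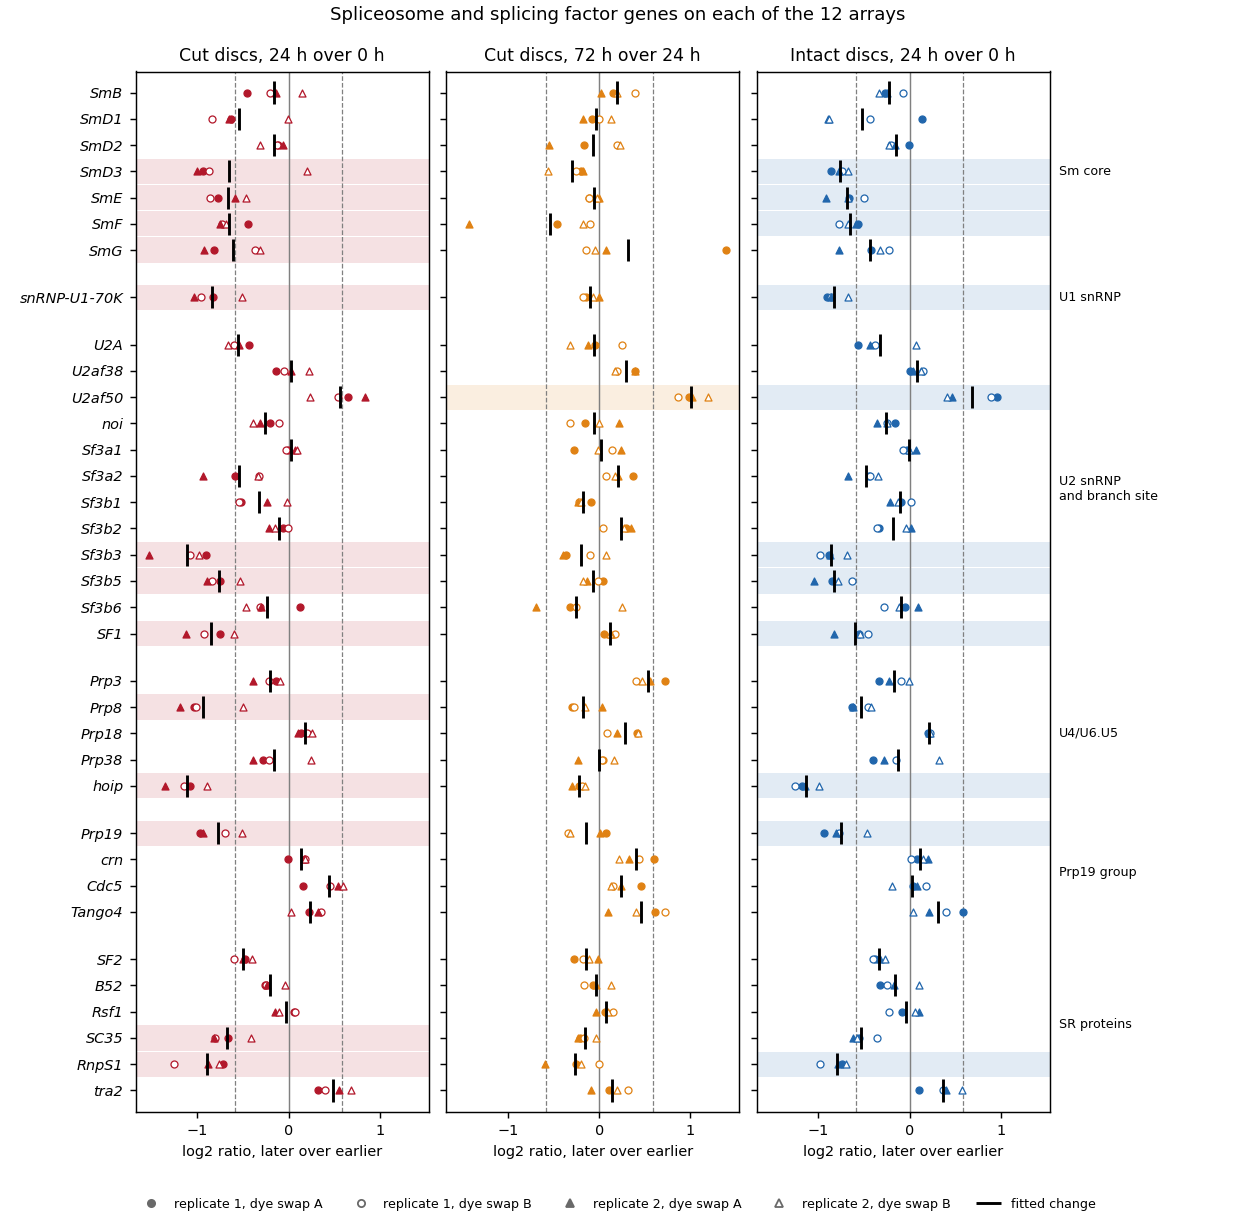
Log2 ratio (later over earlier time, x axis) of each of the 35 measured spliceosome and splicing factor genes on the 4 arrays of C0→C24 (left), C24→C72 (middle) and NC0→NC24 (right), with the fitted change as a black bar, the 1.5-fold limit as dashed lines and shading over the genes called. Shaded rows lie to the left of 0 in the left panel (13 genes) and the right panel (10 genes), apart from U2af50, which lies to the right of 0 on all 12 arrays.

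**Figure D2:**
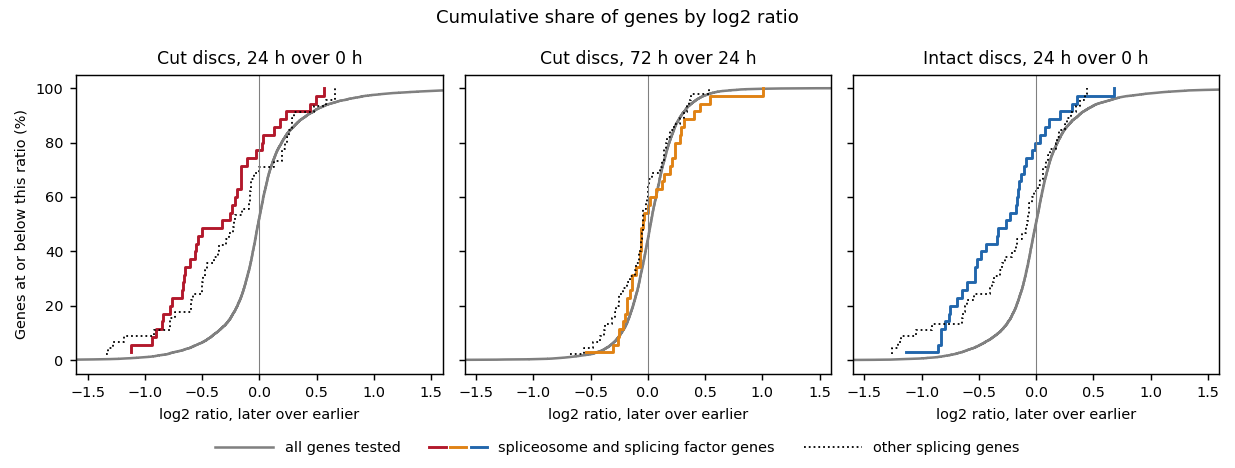
Cumulative share of genes (percent, y axis) at or below a log2 ratio (later over earlier time, x axis) for the 35 spliceosome and splicing factor genes (colour), 45 other splicing genes (dotted) and all 12058 genes tested (grey) in C0→C24, C24→C72 and NC0→NC24. The coloured line runs left of the grey one in both panels of the first 24 h, with medians of -0.33 and -0.26, and close to it in C24→C72, with a median of -0.04. The 45 include 2 box C/D partners of hoip, Fib and Nop56.

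The Sm proteins form the heptameric ring that holds each spliceosomal small nuclear RNA other than U6. Of the 7 genes, 4 fell in C0→C24 and 3 in NC0→NC24, with group medians of -0.61 and -0.52, and all 7 values were below 0 in both. SmD3 (CG8427) had -0.94 and -0.87 on the arrays of replicate 1 and -1.0 and 0.20 on those of replicate 2 in cut discs, against -0.86, -0.74, -0.78 and -0.68 in intact discs. A single array, dye swap B of replicate 2 in cut discs, stood apart from the other 7. The fitted changes were -0.65 ± 0.12 (SE, adjusted p = 0.00345) in cut discs and -0.76 ± 0.12 (adjusted p = 0.00192) in intact discs.

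SmF (CG16792) had -0.45, -0.73, -0.75 and -0.69 on the 4 arrays of C0→C24 and -0.57, -0.77, -0.59 and -0.68 on those of NC0→NC24, so that the arrays of cut and intact discs overlapped. SmE reached -0.67 ± 0.10 in cut discs and -0.69 ± 0.10 in intact discs. SmG, named SNRPG in the annotation, reached -0.61 ± 0.13 in cut discs and -0.44 ± 0.13 in intact discs, and its dye swaps differed, with -0.82 and -0.93 under dye swap A and -0.37 and -0.32 under B in cut discs. SmD1 had -0.54 ± 0.16 in cut and -0.52 ± 0.16 in intact discs, both just short of 1.5-fold. In intact discs its adjusted p of 0.0509 also missed the limit, and its replicate means were -0.15 and -0.89. SmB had -0.16 ± 0.10 in cut and -0.23 ± 0.10 in intact discs, and SmD2 had -0.16 ± 0.08 and -0.15 ± 0.08.

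The values of the 7 genes, each from 1 probe, ran from -0.67 to -0.16 in cut and from -0.76 to -0.15 in intact discs. Their products are joined in the same ring, and differences between the genes were not tested. Several calls of this group were lost when 1 replicate was left out. Without replicate 1 of C0→C24, the calls of SmD3 (-0.40), SmE, SmF (-0.72) and SmG in cut discs were lost, and without replicate 2 those of SmF (-0.59) and SmG, while SmD3 and SmE kept theirs. Without replicate 1 of NC0→NC24, the calls of SmD3 (-0.73) and SmF (-0.64) in intact discs were lost, and without replicate 2 those of SmE and SmF (-0.67).

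The U1 snRNP recognises the 5′ splice site, and snRNP-U1-70K (CG8749), which binds U1 RNA and contacts SR proteins, was its only measured member. It had -0.83 and -0.96 in replicate 1 and -1.04 and -0.51 in replicate 2 of C0→C24, against -0.91, -0.86, -0.86 and -0.68 in NC0→NC24. It fell in cut discs by 0.84 ± 0.08 on the log2 scale, or 1.78-fold, and in intact discs by 0.83 ± 0.08, or 1.77-fold (adjusted p = 0.000155 and 0.000245).

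The group of the U2 snRNP and the branch site held Sf3b3, among the lowest values of the 35 genes, and U2af50, the highest. Of 12 genes, 3 fell and 0 rose in C0→C24, and 3 fell and 1 rose in NC0→NC24. Sf3b3 (CG13900), a large scaffold subunit of SF3b, which anchors U2 at the branch site, had -0.91 and -1.08 in replicate 1 and -1.53 and -0.98 in replicate 2 of C0→C24. In NC0→NC24 it had -0.88, -0.98, -0.87 and -0.69. The fall was 2.18-fold in cut discs (-1.12 ± 0.09, adjusted p = 6.07e-05) and 1.81-fold in intact discs (-0.86 ± 0.09, adjusted p = 0.000341), and the replicate means of cut discs, -1.0 and -1.25, lay below those of intact discs, -0.93 and -0.78.

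Sf3b5 (CG11985), a small subunit of SF3b, had -0.75, -0.84, -0.90 and -0.53 in C0→C24 and -0.85, -0.63, -1.05 and -0.79 in NC0→NC24, with overlapping arrays and fitted changes of -0.76 ± 0.09 and -0.83 ± 0.09. In Drosophila, Sf3b3 and Sf3b5 are also subunits of the SAGA histone acetyltransferase complex. The other SF3b subunits were not called in these comparisons: Sf3b1, which contacts the branch site, had -0.33 ± 0.11 in cut and -0.11 ± 0.11 in intact discs, Sf3b2 had -0.11 ± 0.10 and -0.18 ± 0.10, and Sf3b6 had -0.24 ± 0.10 and -0.09 ± 0.10.

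SF1, which binds the branch site before U2 arrives, fell by 0.85 ± 0.08 on the log2 scale in cut discs and by 0.60 ± 0.08 in intact discs. Its call in intact discs was lost without replicate 2 of NC0→NC24. U2A, the A′ protein of the U2 snRNP, had -0.56 ± 0.11 in cut and -0.33 ± 0.11 in intact discs. The SF3a subunits had unlike values, and differences between them were not tested. Sf3a2 had -0.55 ± 0.08 in cut and -0.48 ± 0.08 in intact discs, noi, the fly counterpart of the third SF3a subunit, had -0.26 ± 0.10 in both, and Sf3a1 had 0.03 ± 0.09 and -0.01 ± 0.09.

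U2af50 (CG9998), the large subunit of U2AF, which binds the polypyrimidine tract before the 3′ splice site, moved against most of the machinery. It was above 0 on all 12 arrays. In C0→C24 it had 0.65 and 0.54 in replicate 1 and 0.84 and 0.23 in replicate 2, against 0.96, 0.89, 0.46 and 0.41 in NC0→NC24. The fitted changes were 0.56 ± 0.12 in cut discs, which passed the adjusted p (0.00714) but not the 1.5-fold limit, and 0.68 ± 0.12 in intact discs, which was called (adjusted p = 0.00344) and lost its call without replicate 1 of NC0→NC24, where the value was 0.44. U2af38, its small partner subunit, which reads the end of the intron, had 0.02 ± 0.09 in cut and 0.08 ± 0.09 in intact discs.

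In the U4/U6.U5 group 2 of 5 genes fell in C0→C24 and 1 in NC0→NC24. hoip (CG3949), the fly counterpart of the yeast protein Snu13, binds U4 RNA and also the box C/D RNAs that guide ribosomal RNA methylation. It had -1.08 and -1.15 in replicate 1 and -1.36 and -0.90 in replicate 2 of C0→C24, against -1.18, -1.26, -1.15 and -0.99 in NC0→NC24. All 8 arrays thus lay at or below -0.90, and the fall was 2.18-fold in cut discs (-1.12 ± 0.08, adjusted p = 3.42e-05) and 2.21-fold in intact discs (-1.14 ± 0.08, adjusted p = 7.32e-05).

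Prp8 (CG8877), the protein that frames the catalytic centre of the spliceosome, had -1.04, -1.02, -1.19 and -0.50 in C0→C24 and -0.63, -0.46, -0.62 and -0.42 in NC0→NC24. Of the 4 arrays of cut discs 3 lay below all 4 of intact discs, and the remaining one, dye swap B of replicate 2, lay among them. The fitted changes were -0.94 ± 0.09 in cut discs, which was called, and -0.53 ± 0.09 in intact discs, which passed the adjusted p (0.00329) but not the 1.5-fold limit. Prp3, a protein of the U4/U6 snRNP, had -0.21 ± 0.08 in cut and -0.17 ± 0.08 in intact discs, Prp38, which acts as the spliceosome is activated, had -0.16 ± 0.10 and -0.13 ± 0.10, and Prp18, a factor of the second catalytic step, had 0.18 ± 0.08 and 0.21 ± 0.08.

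In the Prp19 group only the gene that gives the complex its name was called in the first 24 h. Differences between the genes were not tested. Prp19 (CG5519), a ubiquitin ligase, had -0.97 and -0.70 in replicate 1 and -0.94 and -0.51 in replicate 2 of C0→C24, against -0.94, -0.78, -0.81 and -0.47 in NC0→NC24. It fell by 0.78 ± 0.09 on the log2 scale in cut discs and by 0.75 ± 0.09 in intact discs. Cdc5, a core partner of Prp19, had 0.44 ± 0.10 in cut and 0.03 ± 0.10 in intact discs. Tango4, the counterpart of human PLRG1, had 0.23 ± 0.12 and 0.31 ± 0.12, and crn (crooked neck), a scaffold protein of the complex, had 0.13 ± 0.09 and 0.11 ± 0.09. None of these 3 was called in the first 24 h.

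Of the 6 SR and SR-related proteins 2 fell in C0→C24 and 1 in NC0→NC24. RnpS1 (CG16788), which joins the exon junction complex, had -0.72, -1.26, -0.88 and -0.76 in C0→C24 and -0.74, -0.98, -0.79 and -0.70 in NC0→NC24, with fitted changes of -0.90 ± 0.10 and -0.80 ± 0.10. SC35, a classical SR protein, reached -0.68 ± 0.08 in cut and -0.53 ± 0.08 in intact discs. SF2, another, had -0.50 ± 0.09 and -0.34 ± 0.09. Rsf1, a repressor that opposes SR proteins, had -0.03 ± 0.09 in cut and -0.04 ± 0.09 in intact discs. tra2, which activates the female splice of doublesex, had 0.49 ± 0.10 in cut and 0.36 ± 0.10 in intact discs, each past the adjusted p and under 1.5-fold.

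Only 2 of the 35 genes had more than 1 probe. The 5 probes of B52, an SR protein with several isoforms, gave 0.40, -0.47, -0.83, -0.16 and 0.07 in C0→C24, and 0.14, -0.44, -0.78, -0.04 and 0.31 in NC0→NC24, so that the mean of -0.20 ± 0.10 in cut and -0.16 ± 0.10 in intact discs is taken over probes on both sides of 0. The order of the 5 probes was nearly the same in both. The 2 probes of tra2 gave 0.29 and 0.69 in cut discs and 0.10 and 0.62 in intact discs.

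The position of the genes was not used to choose them. On chromosome arm 2R the genes Prp8, SmD3 and SmF, all lower in cut discs, are neighbours in the RefSeq annotation (Release 6), with 3 protein-coding genes between Prp8 and SmD3 and 6 between SmD3 and SmF. No other pair of measured members lay as close.

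The same genes were then set against each other in cut and intact discs, which asks what the cut adds to implantation. Over the 35 genes the change in cut discs correlated with that in intact discs at 0.951, against 0.9 over all 12058 genes, and 33 of the 35 differed by less than 0.3. This is a description across genes, which share their arrays. The slope of cut on intact values was 1.05, and the difference, cut minus intact, had a median of -0.04 with 23 genes below 0.

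None of the 35 differed between cut and intact discs by limma's test of the difference, with 2 at an unadjusted p under 0.05. Over all genes 0.0166% were called lower and 0.0581% higher in this difference, and 716 genes had an unadjusted p under 0.05. The 2 splicing genes were Prp8, at -0.40 (95% interval -0.70 to -0.11, adjusted p = 0.554), and Cdc5, at 0.41 (0.10 to 0.72, adjusted p = 0.6). Both replicate means of cut discs lay below both of intact discs for 8 of the 35, namely SmG, U2A, Sf3b3, SF1, Prp8, Prp18, SF2 and SC35, and above them for Cdc5 alone; over all genes 19.9% lay lower and 16.9% higher in this way. For hoip the difference was 0.02 (-0.24 to 0.28), and for snRNP-U1-70K it was -0.01 (-0.28 to 0.27), so that differences of 1.5-fold lie outside the intervals of both.

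**Figure D3:**
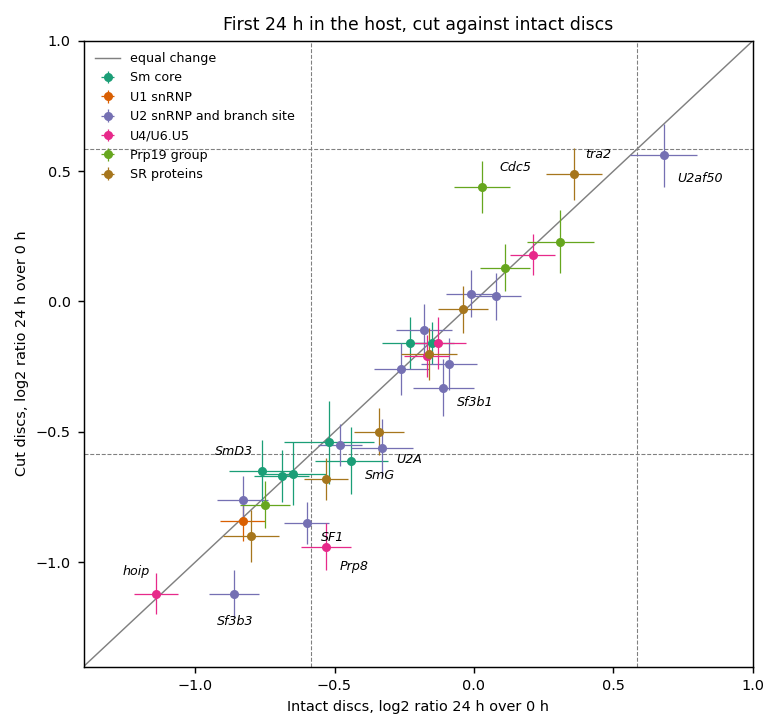
Log2 ratio of 24 h over 0 h in cut discs (y axis) against intact discs (x axis) for the 35 spliceosome and splicing factor genes, coloured by group, with standard errors, the line of equal change and the 1.5-fold limits (dashed). The points follow the line (r = 0.951), with hoip and Sf3b3 at the low end and U2af50 at the high end, and Prp8 and Cdc5 lie farthest from it.

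Between 24 h and 72 h a single splicing gene was called in cut discs. Of the 35, U2af50 rose and 0 fell, while 1.58% of all genes were called lower and 1.36% higher. The median change was -0.04, against 0.02 over all genes, with 15 genes above 0 and 20 below. Smaller values went both ways, with 11 genes above 0 and 6 below 0 on all 4 arrays, and 15 of the 35 had an unadjusted p under 0.05, as did 3102 of all 12058 genes. By adjusted p alone 1 gene was lower (SmF) and 3 were higher (U2af50, Prp3 and crn), where 3.73% and 5.36% of all genes were. Since C0→C24 and C24→C72 both used 24 h RNA of cut discs, an error common to that RNA would enter them with opposite signs, and their values are given side by side only.

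U2af50 had 0.98 and 0.86 in replicate 1 and 1.02 and 1.19 in replicate 2 of C24→C72, after 0.56 ± 0.12 in C0→C24. It rose 2.02-fold (1.01 ± 0.12, adjusted p = 0.00245). U2af38 had 0.29 ± 0.09 (adjusted p = 0.0741), above 0 on all 4 arrays and not called, and the difference between the subunits was not tested. Prp3 had 0.72, 0.40, 0.56 and 0.47, all above 0, with a fitted change of 0.54 ± 0.08 (adjusted p = 0.00632) just under 1.5-fold, after -0.21 ± 0.08 in C0→C24.

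Tango4 had 0.61 and 0.72 in replicate 1 and 0.10 and 0.40 in replicate 2 of C24→C72. Its fitted change was 0.46 ± 0.12 (adjusted p = 0.0534), and it was called without replicate 2. The other Prp19 partners had 0.40 ± 0.09 (crn) and 0.24 ± 0.10 (Cdc5), while Prp19 itself had 0.08 and -0.34 in replicate 1 and 0.01 and -0.32 in replicate 2, with signs that followed the dye order.

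SmF had -0.46 and -0.10 in replicate 1 and -1.43 and -0.18 in replicate 2 of C24→C72, so that its fitted change of -0.54 ± 0.12 (adjusted p = 0.0271) leaned on dye swap A of replicate 2. It was called without replicate 1. SmG had 1.39 and -0.15 in replicate 1 and 0.07 and -0.05 in replicate 2, where the first array again stood alone, and it was called higher without replicate 2. SmD3 had -0.20, -0.25, -0.18 and -0.56, below 0 on each array, with a fitted change of -0.30 ± 0.12 (adjusted p = 0.157).

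The 8 genes with the lowest values in C0→C24 were not called in C24→C72. hoip had -0.22, -0.19, -0.30 and -0.16, Sf3b3 had -0.36, -0.10, -0.40 and 0.07, and Prp8 had -0.30, -0.28, 0.03 and -0.16. RnpS1 had -0.25, 0.00, -0.59 and -0.20. Sf3b5 had 0.04, -0.01, -0.13 and -0.18, and snRNP-U1-70K had -0.14, -0.18, 0.00 and -0.07. SF1 had 0.05, 0.17, 0.13 and 0.12, above 0 on each array. With Prp19, given above, the fitted values of the 8 lay between -0.26 and 0.12.

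The sum of both periods estimates the change of cut discs over 72 h, with a standard error that treats the periods as independent. Here 14 of the 35 were lower and 4 higher, against 7.40% and 9.43% of all genes, with a median of -0.34. At 11.4%, the share of the 35 called higher was thus close to the background. Of the 13 genes that fell by 24 h, 12 were also called lower in the sum, SmG (-0.30 ± 0.19) was not, and U2A (-0.62 ± 0.15) and SF2 (-0.64 ± 0.12) were added. The sum holds the same C0→C24 values by which the 13 were called, so this overlap is partly built in. The call of U2A was lost without either replicate of C0→C24 or replicate 2 of C24→C72, that of SF2 without replicate 1 of either comparison, and that of SmE without replicate 1 of C0→C24. The lowest were hoip at -1.34 ± 0.12 and Sf3b3 at -1.32 ± 0.13, or 2.53-fold and 2.5-fold below 0 h, followed by SmF (-1.20 ± 0.17), RnpS1 (-1.16 ± 0.14) and Prp8 (-1.12 ± 0.13).

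The 4 genes called higher at 72 h than at 0 h were U2af50 (1.58 ± 0.17, or 2.98-fold, adjusted p = 0.000282), Tango4 (0.69 ± 0.17), Cdc5 (0.68 ± 0.14) and tra2 (0.62 ± 0.15). The last 3 were close to the 1.5-fold limit. Without replicate 2 of C0→C24 only U2af50 of the 4 was called, and without replicate 1 of C24→C72 U2af50 and Cdc5 were. Tango4 was also lost without replicate 1 of C0→C24 and with either dye order alone. The call of Cdc5 was lost with dye swap B alone. That of tra2 was lost with dye swap A alone, and where the probe with the median value replaced the mean of its probes. Within the Prp19 group the net values thus lay on both sides of 0, with Prp19 at -0.92 ± 0.12 and its 3 partners between 0.53 and 0.69.

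**Figure D4:**
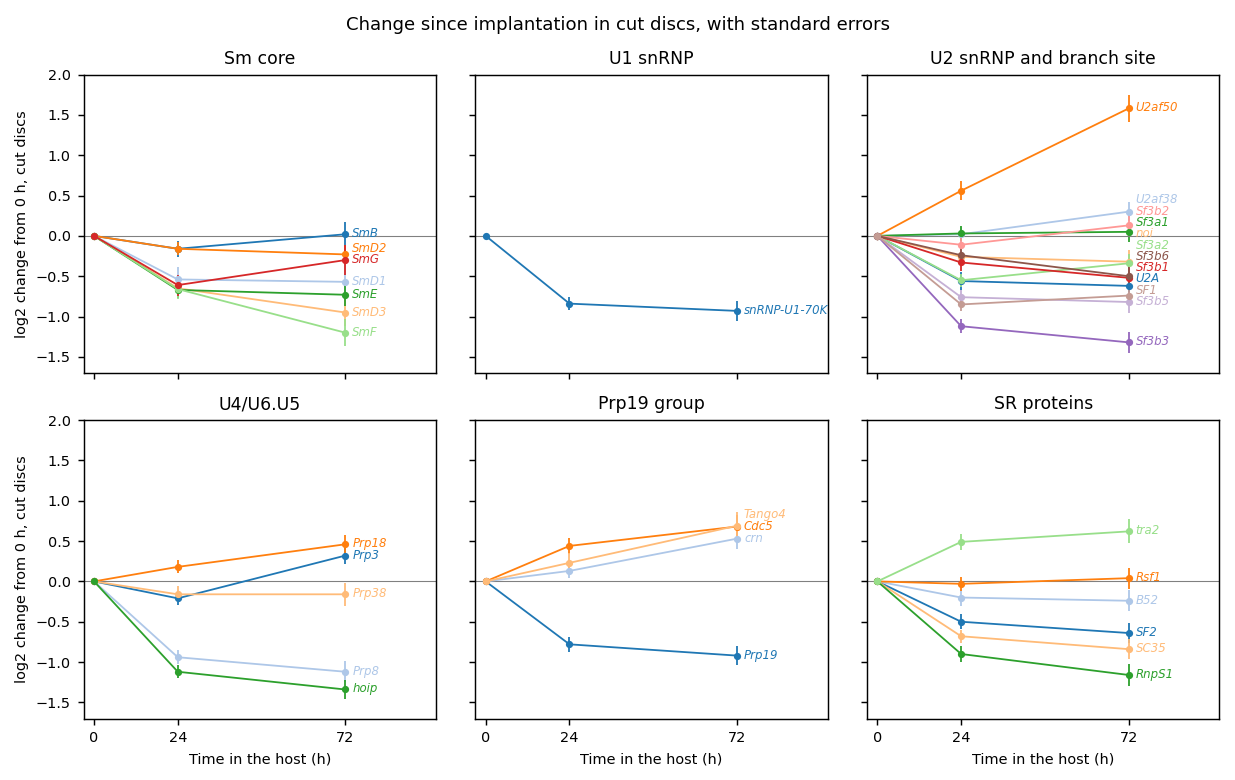
Log2 change since 0 h in cut discs (y axis) at 0, 24 and 72 h in the host (x axis) for the 35 genes by group, where the 72 h value is the sum of C0→C24 and C24→C72 and bars are standard errors. Most lines that drop by 24 h stay low at 72 h, whereas U2af50 climbs in both periods to 1.58 and Prp19 parts from crn, Cdc5 and Tango4.

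Splicing genes outside the 40, counted together with box C/D partners of hoip, had a similar range. Of 57 further genes 45 were measured, and 10 fell and 2 rose in C0→C24, 1 fell and 0 rose in C24→C72, and 10 fell and 0 rose in NC0→NC24. In C0→C24 this was 22.2% lower and 4.44% higher, against 4.94% and 6.12% of all genes. The share lower was 2.22% in C24→C72, against 1.58%, and 22.2% in NC0→NC24, against 3.85%. The share higher in C0→C24 was thus under the background, and the share lower in C24→C72 was close to it. The medians of the 45 were -0.22, -0.04 and -0.08. Among the 45 were 2 box C/D partners of hoip, Fib and Nop56, listed for their part in ribosomal RNA methylation and not for splicing. Both were called lower in C0→C24, in NC0→NC24 and over 72 h, and so add to these shares. The lower ones included genes of spliceosome assembly and of messenger export. icln, a chaperone that feeds Sm proteins into the assembly of the ring, fell by 1.32 ± 0.08 on the log2 scale in cut and by 1.21 ± 0.08 in intact discs, and it was the only one of the 45 called in C24→C72, with -0.83 and -0.45 in replicate 1 and -0.95 and -0.47 in replicate 2. Smn, the survival motor neuron protein, which closes the Sm ring on its RNA, reached -0.74 ± 0.10 in cut discs, where it was called, and -0.54 ± 0.10 in intact discs.

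Hel25E, the helicase that loads U2 and also serves messenger export, fell by 1.34 ± 0.10 on the log2 scale in cut and by 1.26 ± 0.10 in intact discs. The hnRNP proteins Hrb87F and glo fell by 1.28 ± 0.14 and 0.92 ± 0.15 in cut discs, and by 1.18 ± 0.14 and 1.05 ± 0.15 in intact discs. Of the exon junction complex, tsu, the fly Y14 protein, and eIF4AIII fell by 0.60 ± 0.08 and 0.78 ± 0.11 in cut discs and by 0.65 ± 0.08 and 0.64 ± 0.11 in intact discs, while btz had -0.23 ± 0.10 and 0.06 ± 0.10. Dim1, a small protein of the U5 snRNP, fell by 0.60 ± 0.09 and 0.62 ± 0.09.

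Fib and Nop56, which sit with hoip on box C/D RNAs, fell by 0.78 ± 0.08 and 1.18 ± 0.10 in cut discs and by 0.91 ± 0.08 and 1.26 ± 0.10 in intact discs. The values of hoip, -1.12 and -1.14, lay between those of these partners or next to them. The 2 genes that rose in C0→C24 were ps (pasilla), a regulator of alternative exons, and the helicase Rm62, each at 0.66, with 0.12 and 0.38 in intact discs. bl, an hnRNP K protein, fell in intact discs alone, with -0.60 ± 0.10, and had -0.58 in cut discs. Whether ps, Rm62, Smn and bl differed between cut and intact discs was tested in the same fit and none was called. Over 72 h 13 of the 45 were lower and 4 higher, or 28.9% and 8.89%, against 7.40% and 9.43% of all genes. The share higher was thus close to the background. LSm3 (-0.71) and LSm7 (-0.78) of the ring on U6 RNA and LSm1 (-0.58) of the ring that serves messenger decay were lower, beside 10 of the genes named above. LSm10 (0.71), of the U7 snRNP that processes histone messengers, the helicase gene l(1)G0007 (0.64), Bx42 (0.77) and ps (0.64) were higher.

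**Figure D5:**
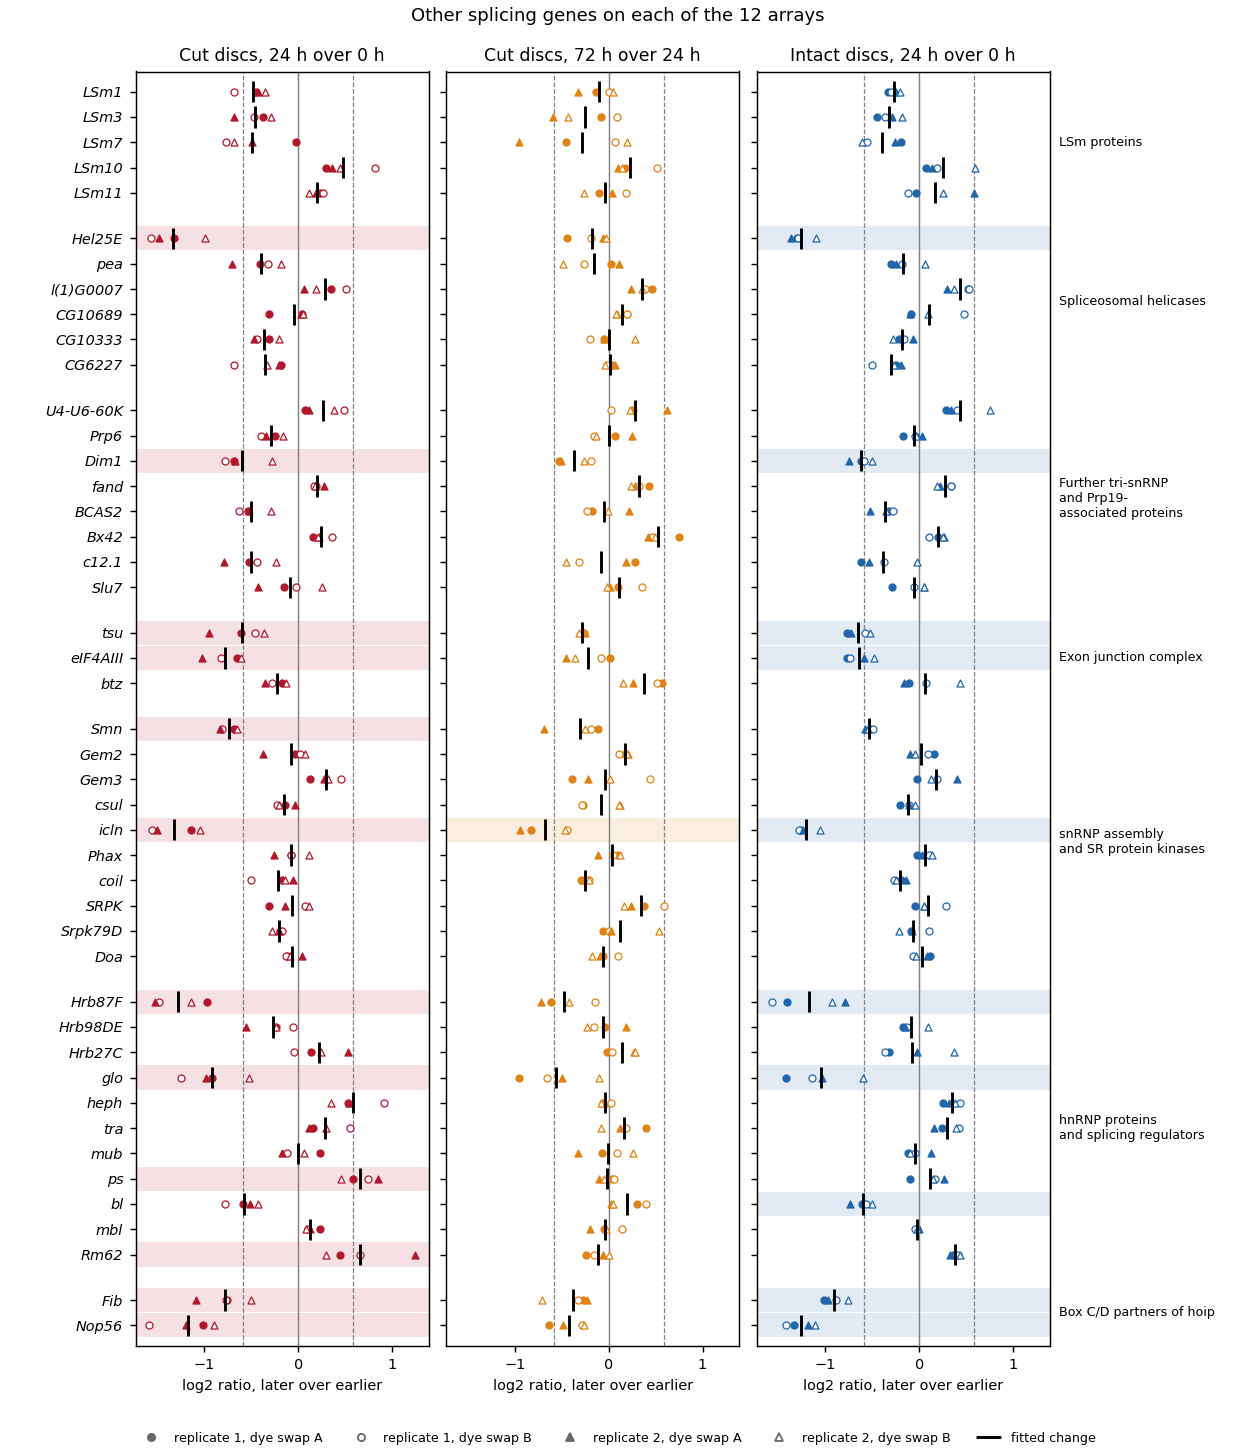
Log2 ratio (later over earlier time, x axis) of 45 splicing genes outside the list of 40 on the 4 arrays of C0→C24 (left), C24→C72 (middle) and NC0→NC24 (right), drawn as for the listed genes, with shading over genes called. Of the 45, 10 are shaded to the left of 0 in each panel of the first 24 h, and icln is the only one shaded in C24→C72. The 45 include 2 box C/D partners of hoip, Fib and Nop56, shaded in both panels of the first 24 h.

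Some markers of host and other cells were called in the same comparisons. Of all genes, 6.12% were called higher and 4.94% lower in C0→C24, and 1.36% and 1.58% in C24→C72. The shares were 5.14% and 3.85% in NC0→NC24, and 9.43% and 7.40% over 72 h. A single call among so few markers was not set apart from these shares. Of 9 hemocyte (blood cell) markers 5 were higher in C0→C24, PPO2 (0.96) was in C24→C72 and Hml (0.64) in NC0→NC24, with medians of 0.82, 0.18 and 0.13, and 8 were higher over 72 h, between 0.65 and 1.59, namely these 6 with He and PPO1. The 5 were eater (1.43), Hml (1.44), NimC1 (0.88), srp (0.84) and Sr-CI (0.82). Of 6 fat body markers Lsp2 (1.97) and Fbp2 (0.92) were higher in C0→C24 and both were lower in C24→C72 (-2.20 and -0.76), where the yolk protein genes Yp1, Yp2 and Yp3 had 1.13, 0.55 and 1.86 and were not called. Of 7 muscle markers Mlc2 was higher in both, at 1.11 in cut and 1.22 in intact discs, and 0 of 6 ovary germline markers were called in any comparison.

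The part of these cells in the lower ratios of splicing genes was not tested. In NC0→NC24, 1 of 9 hemocyte, 0 of 6 fat body and 1 of 7 muscle markers were called, all higher, against 5.14% of all genes. By adjusted p alone 3 hemocyte markers were higher and 1 lower, 1 fat body marker was higher, and 1 muscle marker was higher and 1 lower. By that rule 12.0% of all genes were higher and 10.3% lower. The hemocyte markers eater (1.29) and He (1.01) were called higher in cut than in intact discs, where 0.0581% of all genes were. Of 7 wing disc patterning genes nub fell in cut discs (-0.64), where 4.94% of all genes did, and the others were not called in the first 24 h.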

How the data were processed

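The authors deposited log2 ratios of 12 two-colour arrays (an Operon spotted oligonucleotide set), read with GenePix and normalized by them within each set of 4 arrays with OLIN and limma, whose version was not given in the sources used here. Per the labels, RNA was amplified, came from at least 2 independent extractions per condition, and was hybridized with dyes swapped. Arrays with swapped dyes correlated positively, so all arrays of a comparison run the same way and no sign was changed. This does not show which way, and the log2 base and the reading as later over earlier time are not stated for the table. How earlier scaling on each set affected ratios could not be checked, as intensities were not used here.

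Of 16416 features 13164 carried 1 gene symbol, and the probes of a gene were averaged into 12058 genes, 757 of them with several probes. Dye swaps were averaged, and the 6 replicate means entered one model of 3 groups in limma 3.58.1 (R 4.3.3), with 3 residual and 5.641 prior degrees of freedom. Contrasts gave each comparison, cut minus intact, and the sum over 72 h. Standard errors and 95% intervals are those of the fit, and the number of arrays limits the precision. The fit was tested on simulated data, where it missed part of the genes changed 2-fold, and the bound for passing was lowered after its first run. The series' design text names a 1.5-fold limit and the paper's text 2-fold, which was an alternative, as were no fold limit, robust moderation, centring, scaling, other probe rules, single dye orders, arrays as replicates, separate fits, replicate blocks and the omission of each replicate.

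Members and gene lists were chosen with earlier results of these data known, so no list was tested as a set. Every measured member is named. Values on each array are given for the up to 4 members with the largest change in each comparison and the largest of each group, and of other splicing genes those called are named, btz besides, which was chosen after its values were seen, as were array values of SmG and icln. Marker genes were named where called. Sequences and promoter motifs were not used here.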

Additional observations from a re-analysis of the deposited data

How the results depend on the processing

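Under the 20 alternatives tried for each count, the fitted value of no called member changed sign. Counts and medians were not scored for a reversal. Limits of precision come from 2 replicates a comparison and from the weak dye swaps of C24→C72. hoip kept its calls in both first-day comparisons under all 20, Sf3b3 in C0→C24 and U2af50 in C24→C72. In the checks on single genes with array values, 354 kept and 26 lost the call. Many of the alternatives had little or no room to change a call. Omitting a replicate of another comparison left the fitted value as it was, as did the probe rules for genes with 1 probe. The use of adjusted p alone cannot lose a call. With a 2-fold limit, by construction stricter, 2 members (Sf3b3 and hoip) were lower in C0→C24, 1 was lower and 0 were higher in NC0→NC24, and 5 were lower and 1 higher over 72 h. By adjusted p alone 3 were higher in C0→C24, 2 higher in NC0→NC24, and 1 lower and 3 higher in C24→C72, where 13.9%, 12.0%, 3.73% and 5.36% of all genes were. Dye swap A alone gave 1 higher in C0→C24 and 1 lower and 2 higher in C24→C72, and either dye order alone gave 2 higher over 72 h. Leaving out 1 replicate gave 10 to 13 lower and 0 to 1 higher in C0→C24, 7 to 10 lower and 0 to 1 higher in NC0→NC24, 0 to 1 lower and 1 to 3 higher in C24→C72, and 12 to 14 lower and 1 to 5 higher over 72 h. The cause of these shifts was not tested.

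The median of the members moved by more than its spread between replicates in several settings. In C0→C24 it was -0.495 over the members with 1 probe, in a fit limited to genes with 1 probe. It was -0.46 without replicate 2, while -0.35 without replicate 1 was within the spread. In C24→C72 it was -0.064 with centred arrays, -0.06 over genes with 1 probe, 0.00 with dye swap B alone, and between -0.01 and 0.015 without 1 replicate, so its sign there is not settled. In NC0→NC24 it was -0.33 over genes with 1 probe, and -0.34 and -0.215 with dye swaps A and B alone. It was -0.295 without replicate 1 and -0.29 without replicate 2. These 2 values lay so close that even -0.26 with centred arrays, against -0.255 in the main fit, counted as moved.

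Replicate numbers were not taken to pair samples across comparisons. Deviations of same-numbered samples correlated at -0.081 between C0→C24 and C24→C72, -0.12 between C0→C24 and NC0→NC24 and 0.015 between C24→C72 and NC0→NC24. With the number as a replicate block, 13 members were lower in C0→C24, 10 lower and 1 higher in NC0→NC24, 1 higher in C24→C72, and 14 lower and 4 higher over 72 h, as without the block. The pairing with crossed numbers in NC0→NC24, chosen after seeing the data, gave the same counts.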
